A study of Mus musculus with 6 samples.

Results

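Neurexins, neuroligins, cerebellins and the leucine-rich repeat protein Lrrtm2 join the membranes of a synapse from both sides. The 9 genes examined were Nrxn2, Nrxn3, Nlgn1, Nlgn2, Nlgn3, Cbln1, Cbln2, Cbln4 and Lrrtm2, out of 22071 genes named on an exon microarray. This list of gene symbols was chosen with earlier results of these data known. They were covered by 186 probe sets that the platform annotation gives to a single one of these symbols, out of 1195555 probe sets in the table. Expression was compared between primary cortical neurons infected with a lentivirus that carried a short hairpin RNA (shRNA) targeting Cugbp1 (current symbol Celf1) and neurons infected with a control shRNA lentivirus, with 3 arrays per group. Both groups came from C57Bl/6 embryos at embryonic day 15, had the meninges removed, received the DNA synthesis blocker AraC early in culture, were infected for 4 hours on day 5 and were harvested on day 11. The labels name 1 Cugbp1 hairpin and no promoter for it, so other effects of that hairpin cannot be told apart from those of lowering Celf1.

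A neurexin sits in the axon terminal and binds neuroligins and LRRTM proteins across the synaptic cleft. Cerebellins are secreted C1q-family proteins that link a neurexin to delta glutamate receptors or to other receptors on the opposite side. Neuroligins differ by synapse, Nlgn1 being known mainly from excitatory and Nlgn2 from inhibitory synapses, and neurexin transcripts are spliced at several sites that alter which partner they bind. CELF1 is an RNA-binding protein with roles in splicing and in mRNA decay.

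Celf1 itself was lowered in the arrays labelled as knockdown. Its gene value, a log2 summary of its exon probe sets, was 9.59, 9.40 and 9.33 in Cugbp1 shRNA replicates 1, 2 and 3, against 10.85, 10.79 and 10.75 in control replicates 1, 2 and 3. The difference was -1.36 (standard error 0.099, limma, adjusted p = 0.0124), which left 39.1% of the control level. The protocol text of replicates 2 and 3 names an shRNA against Tdp-43 in place of Cugbp1, yet Tardbp, the gene of TDP-43, was at -0.035 (adjusted p = 0.961). The series' design text mentions motor neurons, whereas the sample labels give cortical ones. Pan-neuronal markers averaged 11.82 to 11.90 in Cugbp1 shRNA arrays and 11.94 to 12.10 in control arrays, and microglia markers 6.61 to 6.94 and 6.69 to 6.99, not far above 5.73, the filter on dim probe sets. The labels do not say whether the 3 arrays of a group came from separate cultures, so p values measure the spread between these arrays, which may be technical.

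Of the 9 genes, the cerebellins Cbln4 and Cbln1 fell and the other 7 did not pass the test. All 9 had enough measured probe sets to be tested. A gene was called at an adjusted p under 0.05 in limma over 16524 genes, and by that rule 2.84% of all genes were called lower and 1.1% higher. At an unadjusted p under 0.05 the count was again 2 of 9, where 18.8% of all genes passed. The median log2 difference was -0.036 over the 9 genes and -0.015 over all genes tested, with 6 of the 9 at a lower mean.

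**Figure D1:**
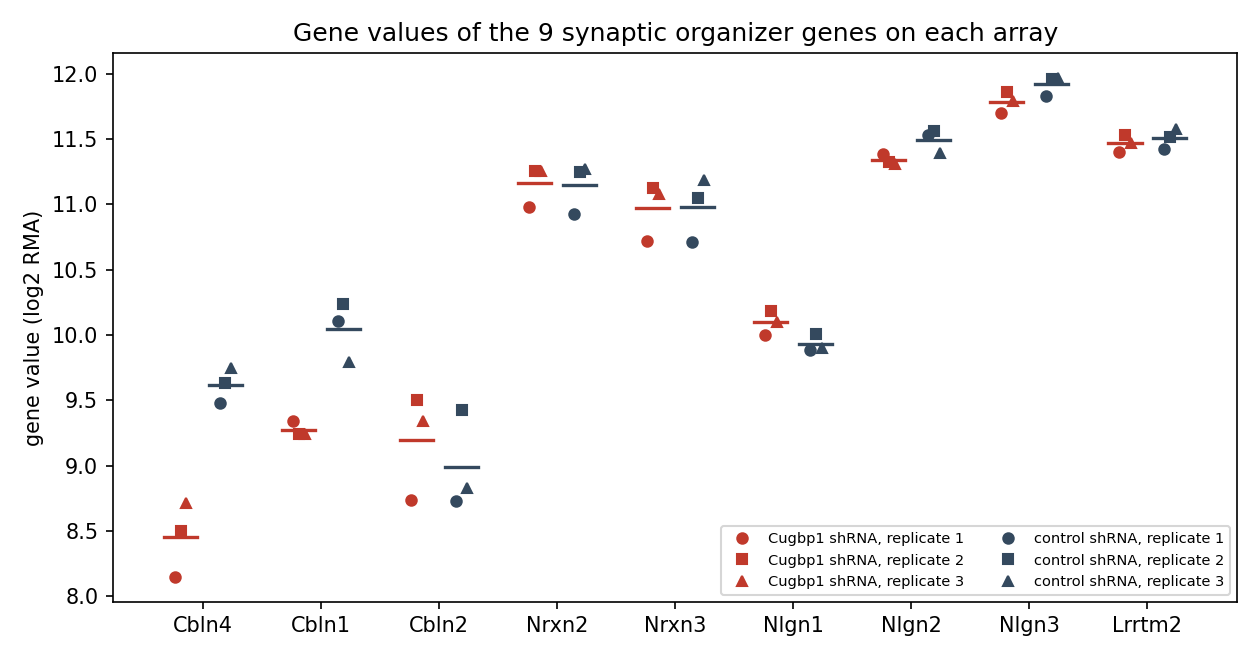
Gene values (log2 RMA, vertical axis) of the 9 genes on each of the 6 arrays, Cugbp1 shRNA left of control, with a bar at the group mean and a symbol per replicate number. Cbln4 and Cbln1 are clearly lower in all Cugbp1 shRNA arrays. Replicate 1 is the lowest array within both groups for every gene but Cbln1 and Nlgn2, Cbln4 included. Heights of different genes are not comparable.

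Cbln4, a secreted cerebellin that binds neurexins and is known in cortex from inhibitory neurons that express somatostatin, had the largest fall of the 9. Its gene value was 8.15, 8.50 and 8.71 in Cugbp1 shRNA replicates 1, 2 and 3, against 9.48, 9.63 and 9.74 in control replicates 1, 2 and 3. The highest knockdown array lay below the lowest control array. The difference was -1.16 (standard error 0.15, limma, adjusted p = 0.0177), so 44.6% of the control level remained, with a 95% interval of 34.7% to 57.3%. Within the replicate numbers it was -1.33, -1.13 and -1.03. Among the 470 genes called lower in this comparison, Cbln4 had the 12th largest fall. In cultures of mixed cells, a loss of the cells that express a gene and a loss of its RNA per cell cannot be told apart. Somatostatin itself, Sst, was at -0.15 (standard error 0.23, limma, adjusted p = 0.834), with a wide 95% interval from -0.68 to 0.38. Of 13 GABAergic markers, Sst among them, 6 had a higher mean and 7 a lower one. The part of such cells in the fall of Cbln4 was not tested.

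Cbln1, the founding cerebellin, best known for linking parallel fibre terminals to Purkinje cells in the cerebellum, fell by 0.77 on the log2 scale (standard error 0.13, limma, adjusted p = 0.0276). Its gene value was 9.34, 9.24 and 9.24 in Cugbp1 shRNA replicates 1, 2 and 3, against 10.10, 10.24 and 9.79 in control replicates 1, 2 and 3. The groups did not overlap, and the control arrays were more spread (SD 0.23) than the knockdown arrays (SD 0.058). Of the control level 58.7% remained, with an interval of 47.7% to 72.1%. Within replicate numbers the difference was -0.76, -1.0 and -0.55.

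Both calls were lost with any single array left out. Such fits called 0 to 274 of all genes tested, against 651 with all 6 arrays, so most calls were lost in them. In those fits Cbln4 stayed between -1.32 and -1.02 but its adjusted p was 0.0505 to 0.144, and Cbln1 stayed between -0.83 and -0.61 with an adjusted p of 0.0654 to 0.189. Without replicate 1 of both groups, whose protocol text differs from that of the others, Cbln4 was at -1.09 and passed (limma, adjusted p = 0.0314), and Cbln1 was at -0.73 and did not (adjusted p = 0.0551).

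Cbln2, another cerebellin, with cortical expression in excitatory neurons, did not follow them. It had 8.74, 9.51 and 9.34 in Cugbp1 shRNA replicates 1, 2 and 3, against 8.73, 9.42 and 8.83 in control replicates 1, 2 and 3, a difference of 0.20 with a 95% interval from -0.37 to 0.78 (limma, adjusted p = 0.774). The replicates spread more here than in any of the other 8 genes, with an SD of 0.40 in Cugbp1 shRNA arrays and 0.38 in control arrays, and the upper end of the interval stands at 172% of the control level. Within arrays, the level of Cbln4 minus that of Cbln2 lay between -1.0 and -0.59 in Cugbp1 shRNA arrays and between 0.21 and 0.92 in control arrays, a difference of -1.37 without overlap. Cbln1 minus Cbln2 lay between -0.26 and 0.60 and between 0.82 and 1.38, a difference of -0.97. For both pairs the two-sided exact permutation p was 0.1, and 0.15 after adjustment over 3 pairs of cerebellins. Cbln4 against Cbln1 differed by -0.39 (exact permutation p = 0.3, adjusted p = 0.3). Since 0.1 is the smallest p that 3 arrays against 3 allow, this test could not pass the threshold used for genes. Cbln4 and Cbln1 were called lower on these same arrays, so their pairs with Cbln2 describe the values and add no separate evidence. Cbln3, the remaining cerebellin and mainly a cerebellar gene, was at -0.044 (adjusted p = 0.905).

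**Figure D2:**
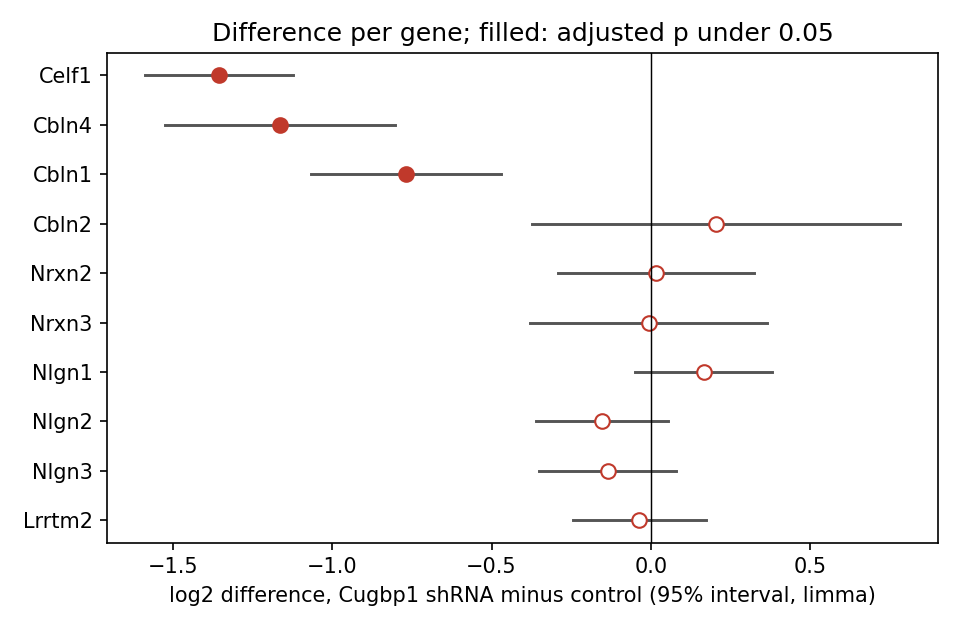
Log2 difference of each gene, Cugbp1 shRNA minus control, with its 95% interval from limma over 6 arrays; filled points passed an adjusted p of 0.05. The intervals of Celf1, Cbln4 and Cbln1 lie wholly below 0, and the other 7 genes have intervals that include 0.

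The neurexins had near-equal gene values in the 2 groups. Nrxn2 had 10.98, 11.25 and 11.26 in Cugbp1 shRNA replicates 1, 2 and 3, against 10.93, 11.24 and 11.27 in control replicates 1, 2 and 3. Nrxn3 had 10.72, 11.12 and 11.08 in Cugbp1 shRNA replicates 1, 2 and 3, against 10.71, 11.05 and 11.18 in control replicates 1, 2 and 3. For both genes the replicate number separated the arrays and the shRNA did not: replicates 2 and 3 stood 0.30 above replicate 1 in Nrxn2 and 0.39 above it in Nrxn3, averaged over the groups. The difference of Nrxn2 was 0.016, with an interval from -0.29 to 0.32 (limma, adjusted p = 0.979). That of Nrxn3 was -0.0065, with an interval from -0.38 to 0.37 (adjusted p = 0.994). These signs turned under several settings and carry no direction.

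Neuroligins, the postsynaptic partners, moved by small amounts that did not pass. Nlgn1 had 10.00, 10.19 and 10.10 in Cugbp1 shRNA replicates 1, 2 and 3, against 9.89, 10.01 and 9.90 in control replicates 1, 2 and 3. It was higher within each replicate number, though the groups overlapped, and its difference of 0.17 had an interval from -0.049 to 0.38 (limma, adjusted p = 0.409). Nlgn2 had 11.38, 11.32 and 11.31 in Cugbp1 shRNA replicates 1, 2 and 3, against 11.53, 11.56 and 11.39 in control replicates 1, 2 and 3. Its groups did not overlap, as in 14.4% of all genes in the lower direction, and its difference was -0.15 with an interval from -0.36 to 0.053 (adjusted p = 0.431). Weighting the arrays by quality took Nlgn2 to -0.21 and past the threshold (limma, adjusted p = 0.0365). Nlgn3, also expressed by glia, was at -0.14 with an interval from -0.35 to 0.079 (adjusted p = 0.519) and was lower within each replicate number, by 0.13, 0.099 and 0.18. Lrrtm2, a postsynaptic neurexin ligand of excitatory synapses, had 11.40, 11.53 and 11.47 in Cugbp1 shRNA replicates 1, 2 and 3, against 11.42, 11.51 and 11.58 in control replicates 1, 2 and 3, a difference of -0.036 with an interval from -0.25 to 0.17 (adjusted p = 0.912).

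Most probe sets of Cbln4 and Cbln1, each of which reads a short stretch of an exon, had lower values in all knockdown arrays. Of the 186 probe sets 181 had a mean at or above 5.73, the median of all probe sets, and were kept. The 5 left out were 2 of Nrxn2 and 1 each of Nrxn3, Nlgn1 and Cbln1. Of 21 kept Cbln4 probe sets 20 were lower without overlap between the groups, and of 9 kept Cbln1 probe sets 6 were, while 6.57% of all kept probe sets were lower in this way and 5.44% higher. Among the 151 kept probe sets of the other 7 genes, 8 were lower and 3 higher without overlap. No single probe set of the 9 genes passed over all 597778 kept probe sets (limma, smallest adjusted p = 0.417, in Cbln4), and neither did any other probe set. At an unadjusted p under 0.05, 20 Cbln4, 5 Cbln1, 2 Nrxn2 and 1 Nrxn3 probe sets were lower, beside 3.58% of all kept probe sets, and 0 of the 181 were higher, beside 2.34%. All 9 Cbln2 probe sets had a higher mean, by 0.035 to 0.39, and in none did the groups separate. Nlgn1 had a higher mean in 21 of 22 probe sets and Nlgn3 a lower one in 14 of 15. Probe sets of a gene share its RNA and are not independent.

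**Figure D3:**
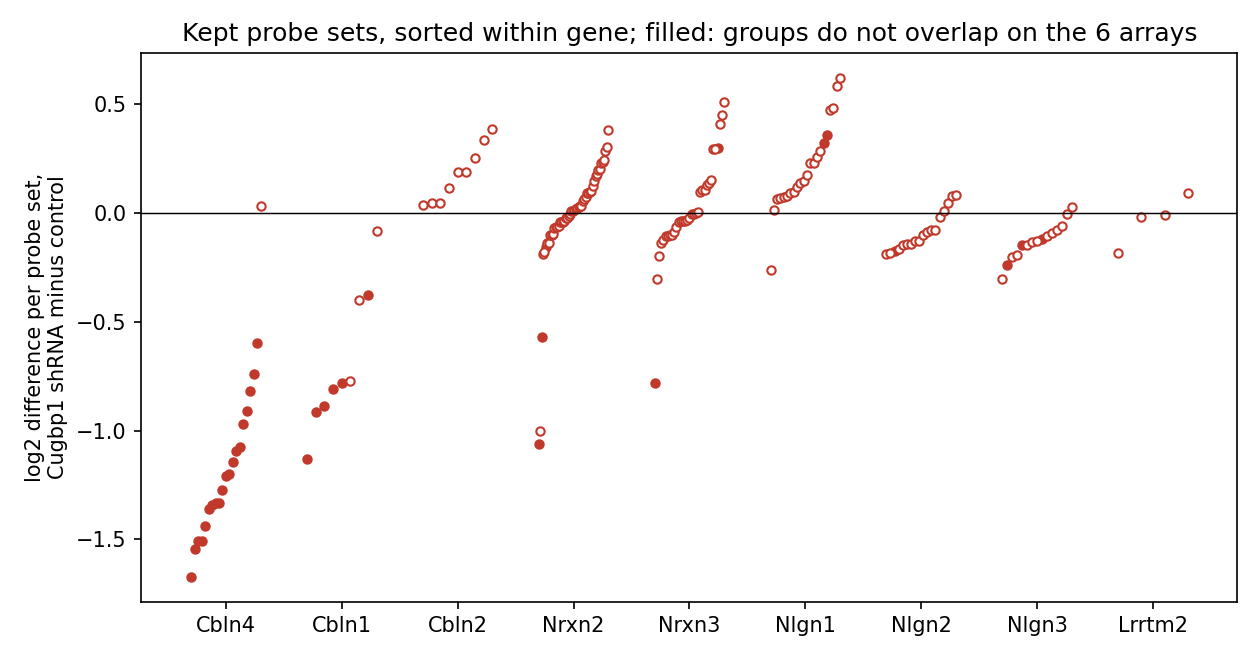
Log2 difference of each kept probe set, Cugbp1 shRNA minus control, sorted within gene; filled points have groups that do not overlap on the 6 arrays. Cbln4 runs from -1.67 to -0.60 with a lone point at 0.033, and Nrxn2 and Nrxn3 lie around 0 with a few lower points, the lowest at -1.06 in Nrxn2 and -0.78 in Nrxn3.

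The size of the difference varied among the Cbln4 probe sets. It was largest in probe set 4429573, which had 8.58, 9.28 and 9.68 in Cugbp1 shRNA replicates 1, 2 and 3, against 10.62, 10.88 and 11.05 in control replicates 1, 2 and 3, a difference of -1.67. Probe set 4748441 was the exception among the 21. It had 10.06, 10.01 and 10.40 in Cugbp1 shRNA replicates 1, 2 and 3, against 9.88, 10.06 and 10.43 in control replicates 1, 2 and 3, a difference of 0.033 (unadjusted p = 0.881, limma). This probe set was not dim, since 14 of the other Cbln4 probe sets had a lower control mean. Leaving it out, a setting chosen after seeing the data, changed the gene's difference to -1.19 (adjusted p = 0.0174). In Cbln1 the differences ran from -1.13 in probe set 4494966 to -0.082 in probe set 5517570. Probe set 5517570 lay between 5.36 and 6.13 on all arrays, close to the filter.

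**Figure D4:**
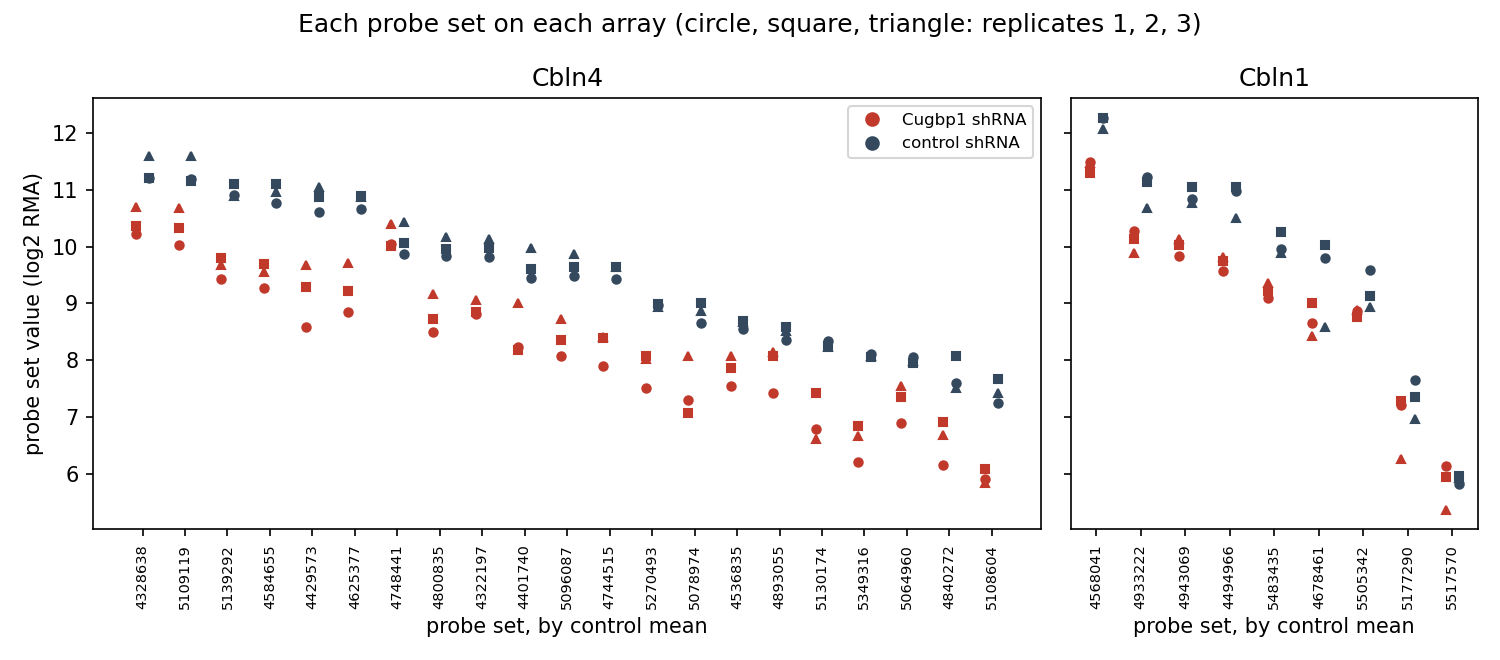
Log2 RMA value of each kept probe set of Cbln4 (left, 21) and Cbln1 (right, 9) on each array, ordered from the highest to the lowest control mean, with Cugbp1 shRNA left of control. In Cbln4 every probe set but 4748441 has its Cugbp1 shRNA arrays below its control arrays; in Cbln1 the 3 dimmest probe sets have the smallest differences, -0.40, -0.38 and -0.082.

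Exon usage, the level of a probe set relative to the rest of its gene, was compared because CELF1 acts in splicing. The diffSplice test called 1 of the 181 probe sets, Cbln4 probe set 4748441, beside 0.0822% of all 244606 probe sets tested. It was 1.24 higher relative to the rest of Cbln4 in knockdown (standard error 0.23, adjusted p = 0.00345). Relative to the gene value it stood at 1.91, 1.51 and 1.69 in Cugbp1 shRNA replicates 1, 2 and 3, against 0.40, 0.43 and 0.69 in control replicates 1, 2 and 3, and the groups did not overlap. Its own level was nearly equal in both groups, while the other 20 Cbln4 probe sets were lower in knockdown. Without control replicate 2 it was 1.18 higher and did not pass (adjusted p = 0.196). A splicing index, which gives each probe set its own variance, put it at 1.20 with an unadjusted p of 0.000101, and called 0 of all 244606 probe sets after adjustment, with 4.28% at an unadjusted p under 0.05. By gene, Cbln4 passed the Simes test of diffSplice (adjusted p = 0.00476), as did 0.884% of genes, and the other 8 genes did not (0.760 to 0.998). With the replicate block Nrxn2 (adjusted p = 5.57e-08), Nrxn3 (0.000206) and Nlgn1 (0.0396) passed too, as did 19.6% of genes.

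Most of the neurexin probe sets with the smallest usage p were relatively lower, and whether they passed depended on the test. No exon or splice site is given for any probe set, since their positions were not used. Nrxn3 probe set 4477627 had 8.65, 9.06 and 9.22 in Cugbp1 shRNA replicates 1, 2 and 3, against 9.52, 9.78 and 9.97 in control replicates 1, 2 and 3. It was lower by 0.72 to 0.88 within each replicate number, while the gene value of Nrxn3 stayed level. Its usage difference of -0.83 (standard error 0.26) did not pass in diffSplice (adjusted p = 0.459) and passed when replicate number was a block (adjusted p = 7.84e-05). The splicing index gave -0.78 (unadjusted p = 0.000199, and adjusted p = 0.278 with the block). Nrxn3 probe set 5054059 went the other way, with a usage difference of 0.50. It passed in diffSplice with the block (adjusted p = 0.0374) and not without it.

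In Nrxn2, probe set 5039105 had 7.76, 7.92 and 8.25 in Cugbp1 shRNA replicates 1, 2 and 3, against 8.34, 9.53 and 9.24 in control replicates 1, 2 and 3. The groups did not overlap, and its usage difference was -1.07 (diffSplice, adjusted p = 0.500, and 1.56e-08 with the replicate block). Without control replicate 1 it was -1.39 and passed without the block (adjusted p = 0.0152). Nrxn2 probe set 4499433 had 6.67, 6.24 and 4.57 in Cugbp1 shRNA replicates 1, 2 and 3, against 7.07, 7.42 and 5.98 in control replicates 1, 2 and 3. The groups overlapped, the replicate 3 arrays were dim, and the difference was -1.0 (diffSplice, adjusted p = 0.647, and 1.00e-07 with the block). It was -1.47 without Cugbp1 shRNA replicate 1 and -0.37 without Cugbp1 shRNA replicate 3. The block called 9 probe sets of the 9 genes, beside 2.37% of all probe sets: 3 in Nrxn2, 2 in Nrxn3, 1 in Nlgn1 and 3 in Cbln4, with 6 relatively lower and 3 higher. Both forms of diffSplice share a variance among the probe sets of a gene, and on simulated data in which probe sets had unequal spreads this gave false calls well beyond the nominal rate. With the block and its own variance no probe set of the 9 genes passed.

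**Figure D5:**
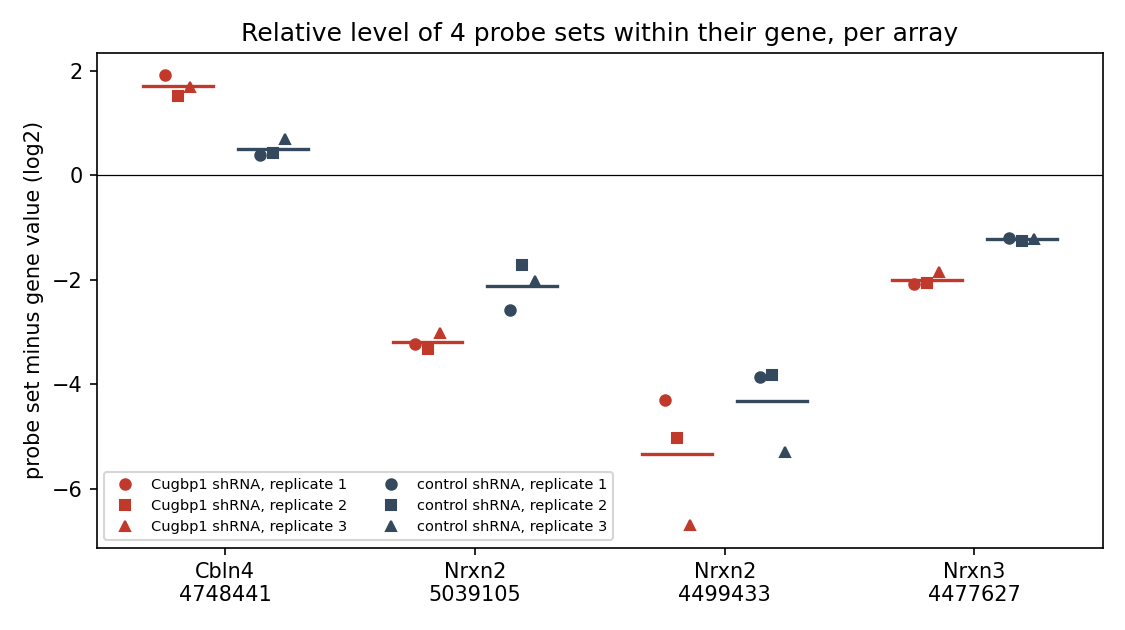
Probe set value minus gene value (log2) on each array for 4 probe sets, Cugbp1 shRNA left of control, with a bar at the group mean. Cbln4 probe set 4748441 is relatively higher in all 3 Cugbp1 shRNA arrays, Nrxn2 probe set 5039105 and Nrxn3 probe set 4477627 are relatively lower in all 3, and Nrxn2 probe set 4499433 overlaps.

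Other synaptic organizers, their scaffolds and their regulators were read from 4 lists of 95 genes, of which 82 had a gene value. By limma 0 of these 82 rose and 3 fell, where 3.94% of all genes were called, and the replicate block gave 8 higher and 15 lower, where it called 23.2%. Lrrtm1, a presynaptic-inducing relative of Lrrtm2, fell by 0.59 (standard error 0.094, adjusted p = 0.0256), with means of 10.80 ± 0.025 in Cugbp1 shRNA arrays and 11.39 ± 0.12 in control arrays (SD, n = 3 each). It was the only call among 24 postsynaptic partners, a list with a median of -0.020, in which Lrrtm3 was at -0.15 (adjusted p = 0.392) and Lrrtm4 at -0.17 (adjusted p = 0.420). The glutamate receptor subunit Grid1, a cerebellin receptor, was at -0.14 (adjusted p = 0.809).

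Of 23 further organizers, listed as presynaptic though not all act from that side, 0 passed in limma. The list's median was -0.10, and 4 members had an unadjusted p below 0.05, as did 18.8% of all genes. The smallest p belonged to Nxph1, a secreted neurexin ligand, at -0.51 (adjusted p = 0.0726, and 0.0199 with the block). Clstn2 and Clstn3, calsyntenins, were at 0.43 (adjusted p = 0.123) and -0.43 (adjusted p = 0.166). With the block their adjusted p was 0.00840 and 0.00802. Of 22 intracellular scaffolds 1 fell, Lin7c, a PDZ protein of the CASK complex that binds neurexins from within, by 0.62 (standard error 0.10, adjusted p = 0.0267), and the list had a median of -0.024. Its relatives Lin7a and Lin7b were at 0.39 (adjusted p = 0.206) and -0.36 (adjusted p = 0.142) and passed with the block in those directions, at 0.0107 and 0.0104. Cask, the scaffold itself, was at 0.084 (adjusted p = 0.828).

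Of 13 regulators of neurexin and neuroligin splicing or shedding, Rbfox1, a neuronal splicing factor, fell by 0.39 (limma, adjusted p = 0.0435), and the list's median was -0.025. Khdrbs1, Khdrbs2 and Khdrbs3, the STAR family proteins known to regulate a neurexin splice site, were at 0.035, -0.073 and -0.073 (adjusted p = 0.939, 0.937 and 0.813).

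Markers of the cells in these cultures moved as follows beside the cerebellins. For comparison, limma called 3.94% of all genes, the replicate block called 23.2%, and 18.8% had an unadjusted p under 0.05. A lower mean was found in 8838 of all 16524 genes. Of 13 GABAergic markers 1 rose, Gad2 by 0.77 (limma, adjusted p = 0.0201), and 0 fell. The list had 7 members at a lower mean and a median of -0.030. With the block 2 were called higher, Gad2 and Gad1 (0.46, adjusted p = 0.0712, and 0.00824 with the block), and 2 lower, Lhx6 (-0.30, adjusted p = 0.183, and 0.0236 with the block) and Calb2 (-0.33, adjusted p = 0.368, and 0.0139 with the block). The summed linear signal of the list was 12432 to 13292 in Cugbp1 shRNA arrays and 10626 to 12898 in control arrays. Of 9 glutamatergic markers 0 passed (2 at an unadjusted p under 0.05), though all 9 had a lower mean, and their summed signal was 14302 to 14720 in Cugbp1 shRNA arrays and 16875 to 18002 in control arrays. With the block 3 of the 9 were called lower, Camk2a (-0.58, adjusted p = 0.00538), Bcl11b (-0.23, adjusted p = 0.0450) and Neurod6 (-0.31, adjusted p = 0.0267). Of 13 pan-neuronal markers 1 fell, the neurofilament gene Ina by 0.60 (limma, adjusted p = 0.0199), and 11 had a lower mean. Their summed signal was 58852 to 65151 in Cugbp1 shRNA arrays and 63725 to 72293 in control arrays. The block called 2 lower, Ina and Dcx (-0.45, adjusted p = 0.0893, and 0.00504 with the block). None of the 10 astrocyte, 10 microglia and 9 oligodendrocyte markers was called by limma, and 0 had an unadjusted p under 0.05. With the block 1 astrocyte and 1 microglia marker were called lower and 0 oligodendrocyte markers were called. In the 9 endothelial and mural and the 9 fibroblast and meninges markers, 1 each fell, Pdgfrb by 0.80 and Thbs1 by 0.72. The part of these markers in the falls of Cbln4 and Cbln1 was not tested.

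The genes whose values were closest to the called members are given by the root mean square difference over the 6 arrays, after each gene was centred on its control mean. For Cbln4 they were Dach2, a transcription cofactor of the Dachshund family, at 0.15, the sialyltransferase St3gal1 at 0.18 and Grp, gastrin-releasing peptide, at 0.18. For Cbln1 they were Gm5113 at 0.070, the phosphatase 2A subunit Ppp2r1b at 0.075 and Samd10 at 0.075. All 6 were themselves called lower, by 1.10, 1.03 and 1.00 for Dach2, St3gal1 and Grp, and by 0.80, 0.83 and 0.80 for Gm5113, Ppp2r1b and Samd10. The measure uses the same arrays as the calls and describes likeness of pattern only.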

How the data were processed

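For each array the authors deposited a log2 RMA value of every exon probe set. Per the labels these came from Expression Console, and per the submitters' processing notes the build was mm9. RMA corrects background and normalizes arrays to a shared distribution, so differences in total signal are removed. The software version is not given in the sources used here, nor is the set of arrays that RMA was run on. Array medians were 5.74 to 5.78, and the number of arrays limits the precision.

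The platform annotation gave a single symbol to 316997 probe sets, several to 6571 and did not list 871987. Symbols were updated through the RefSeq gene table of GRCm38.p6 (17988 current, 4213 by synonym, 63 kept). Probe sets with a mean over the 6 arrays at or above the median, 5.73, were kept, and genes with at least 3 received a value per array by Tukey median polish. Differences are Cugbp1 shRNA minus control by limma 3.58.1 (lmFit, eBayes, two-sided; R 4.3.3) with Benjamini-Hochberg adjustment over all features, and exon usage by diffSplice. The tests were tried on simulated data. Files were read with the data.table package (version 1.17.8) and plotted with matplotlib 3.10.9.

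Replicates 2 and 3 are numbered in the titles, and the unnumbered array of each group was taken as replicate 1. Deviations from the group means correlated at 0.76, 0.50 and 0.72 between same-numbered arrays, and at -0.70 to 0.16 between arrays of different numbers. These correlations run across genes, which are not independent replicates. On this basis the replicate number was taken to pair the arrays in an alternative fit only. The labels state no pairing, so the main fit and its intervals leave this number out, and the fit with it as a block is an alternative. The block gave smaller standard errors for genes that shifted with replicate number. They were 0.056 against 0.13 in Nrxn2, 0.063 against 0.16 in Nrxn3 and 0.11 against 0.25 in Cbln2.

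Named are the 9 genes, Celf1 and Tardbp, called genes of 4 pathway lists or otherwise up to 3 of smallest p, marker genes, the 3 nearest genes of each called member, and called or otherwise the 2 leading probe sets of a gene for exon usage. Some further relatives, such as Cbln3, Grid1, Sst and Cask, were named after their values were seen. Members and lists were chosen with earlier results of these data known.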

Additional observations from a re-analysis of the deposited data

How the results depend on the processing

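Cbln4 and Cbln1 were called lower under quantile normalization, median centring, both other filters on dim probe sets, trended robust variances, weighted arrays, both blocks and means of probe sets, and 1 of them, Cbln4, with replicates 2 and 3 only. With any single array left out 0 of the 9 genes were called. Over all genes 651 calls became 1039 with the filter at the 75th percentile, 1089 with trend and robust variances, 4226 with array weights, 3827 with the replicate block, 2532 with a block for label form and 1348 at an adjusted p under 0.10, and ran from 0 to 274 with single arrays left out. Calls of member probe sets went from 0 to 2 with trend and robust variances and 21 with array weights. Exon usage calls went from 1 to 4 with array weights, 9 with the replicate block, 4 with the label form block, 3 with replicates 2 and 3 only and 0 by the splicing index with or without the block, and ran from 0 to 3 with single arrays left out. The replicate block changed no call of a gene's level among the 9. Signs turned for Nrxn2, at -0.017 with replicates 2 and 3 only, -0.016 with means and -0.086 to 0.10 with single arrays left out, and for Nrxn3, at 0.0041 with quantile normalization, 0.00079 without the filter, 0.035 with array weights, 0.019 with means and -0.16 to 0.10 with single arrays left out. They also turned with single arrays left out for Lrrtm2 (-0.072 to 0.012) and for the usage of Nlgn2 probe sets 5607295 (-0.28 to 0.77) and 4717623 (-0.24 to 0.48). The cause was not tested.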

Other observations

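Some other synaptic adhesion genes passed in limma with the replicate block, which called 23.2% of all genes, and not without it. Slitrk4, Slitrk1 and Slitrk3, synaptic adhesion proteins that bind receptor phosphatases, were at 0.44 (adjusted p = 0.0638), 0.30 (adjusted p = 0.379) and -0.24 (adjusted p = 0.233), and passed with the block (0.0114, 0.0405 and 0.0322). The latrophilin Adgrl1 was at -0.27 (adjusted p = 0.245, and 0.0259 with the block) and the receptor phosphatase Ptprd at 0.20 (adjusted p = 0.319, and 0.0495 with the block). Gphn, the gephyrin scaffold of inhibitory synapses, was at 0.21 (adjusted p = 0.421, and 0.0449 with the block). Dlg4, the PSD-95 scaffold of excitatory synapses, was at 0.17 and did not pass in either fit (adjusted p = 0.432, and 0.0893 with the block). The genes named above are a selection. Over the 82 tested genes of the pathway lists the block called 8 higher and 15 lower. Shisa6 (-0.51), Sytl2 (-0.47), Epb41l1 (-0.38), Shank3 (-0.33), Mdga1 (-0.27), Adgrl2 (-0.26) and Cntnap2 (-0.21) were also called lower with the block and not without it. Flrt1 (0.23) and Apba1 (0.26) were called higher in the same way.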
